A study of Mus musculus with 11 samples.

Results

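The genes Ccl2, Ccl7, Ccl8 and Ccl12 encode secreted CC chemokines of the monocyte-attracting family and lie in one gene cluster on mouse chromosome 11. They were taken by gene name, and all 4 were found in each of the 2 deposited tables, among 35118 genes in the table that compares genotypes and 35597 genes in the table that compares tumor with spleen. The libraries were RNA-seq of macrophages sorted from C57BL/6 mice that received Lewis lung carcinoma (LLC) cells, a transplantable mouse lung tumor line, under the skin at 6 to 8 weeks of age. KO_TAM (n = 4) were tumor-associated macrophages (TAMs) of LysMCre;Sin1fl/fl mice, WT_TAM (n = 4) were TAMs of Sin1fl/fl mice without the Cre, and WT_SP (n = 3) were splenic macrophages of tumor-bearing Sin1fl/fl mice, all taken at day 14. Sin1, listed in the tables as Mapkap1, is a subunit of the kinase complex mTORC2, and the floxed allele was carried by all 3 groups. The Cre is inserted in the lysozyme M gene, Lyz2, which is active in macrophages, monocytes and neutrophils, so deletion is not limited to the sorted cells. The TAM gate was F4/80+ CD11b+ within CD45+ cells that lacked Ly6G and Ly6C. The spleen gate took F4/80+ cells with low CD11b and also removed cells with the T cell receptor beta chain. The labels do not say whether each library came from its own mouse, so the p-values measure only how these libraries spread, and part of that spread may be technical.

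CC chemokines bind G protein-coupled receptors on leukocytes, and also matrix on vessel walls and in tissue, and so direct migration. Ccl2, also called MCP-1, is the main ligand of Ccr2, the receptor that inflammatory monocytes use to leave the bone marrow and enter tissue. Ccl7 (MCP-3) acts through Ccr2 and also through Ccr1 and Ccr3, and Ccl12 (MCP-5) is a mouse chemokine that acts through Ccr2. Mouse Ccl8 (MCP-2) is known as a ligand of Ccr8, a receptor found on some T cells. In mouse tumors Ccl2 is known for the recruitment of monocytes that become TAMs, and macrophages, fibroblasts and tumor cells can all make it.

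The libraries held between 7635600 and 13116713 recovered reads. The lowest total belonged to the library labelled WT_TAM 4, which also correlated least with its own group over all tested genes, with a mean r of 0.902 against 0.954 to 0.956 for the other WT_TAM libraries. KO_TAM 2 had a mean r of 0.951 with its group, against 0.966 to 0.969 for the other KO_TAM libraries. Mapkap1 was at 44.0, 54.1, 43.3 and 45.9 reads per 1000000 library reads (CPM) in KO_TAM 1 to 4 and at 71.1, 66.4, 59.7 and 30.7 CPM in WT_TAM 1 to 4. The library labelled WT_TAM 4 thus lay below every KO_TAM library, against its label. The sources used here do not say which exons the Cre removes, and reads outside them say nothing of the deletion. Macrophage markers were present in all libraries. Their sum over 10 genes was 10193 to 21403 CPM in KO_TAM against 28936 to 40288 CPM in WT_TAM in the genotype table. Of this, Lyz2 alone averaged 10333 CPM in KO_TAM against 27423 CPM in WT_TAM. Lyz2 is the gene that carries the Cre in KO_TAM. Of the 10 genes, 4 had a log2 fold change of KO_TAM over WT_TAM above 0 and 6 below, with a median of -0.04. In the site table the sum was 32773 to 42618 CPM in WT_TAM and 3559 to 3891 CPM in WT_SP. The 8 B and plasma cell genes summed to 26.4 to 180 CPM in WT_TAM, against 14208 to 16277 CPM in the splenic libraries.

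The genes lie on the plus strand of chromosome 11 in the GRCm38 (mm10) build, by the GENCODE M21 annotation. Ccl2 spans chr11:82035571-82037453, Ccl7 chr11:82045712-82047525, Ccl12 chr11:82101845-82103400 and Ccl8 chr11:82115185-82116799. Each has 3 exons, and the starts of Ccl7, Ccl12 and Ccl8 lie 10.1, 66.3 and 79.6 kb from the start of Ccl2. Ccl11, which encodes the eosinophil attractant eotaxin, starts between Ccl7 and Ccl12, 22.3 kb from the Ccl2 start. The whole of Ccl2 lies inside Gm17268, a gene on the opposite strand. No source used here says that strand was used in counting, and only whole-gene spans were compared, not exons. Whether reads of one gene of the pair were counted for the other is therefore not known. Gm17268 itself was given 0 to 3 reads in any library. The transcripts of the 4 chemokine genes share stretches: the longest identical run was 23 bases, between Ccl2 and Ccl7, and 12 bases between Ccl2 and Ccl8. The aligned parts of any pair were 70.8% to 75.5% identical over 127 to 329 bases.

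Of the 4 genes, Ccl12 and Ccl8 had a promoter sequence in the RefSeq table of GRCm38.p6. The sequences are shown because no others were available and these neighbouring genes were the most variable of the 4 among control TAMs. Like Ccl7, both were high in every tumor library and near 0 in every splenic one. Each sequence is the 250 bases before the gene's start on the plus strand, and capitals mark the runs of at least 8 letters that are identical in an alignment of the pair.
Ccl12, chr11:82101595-82101844: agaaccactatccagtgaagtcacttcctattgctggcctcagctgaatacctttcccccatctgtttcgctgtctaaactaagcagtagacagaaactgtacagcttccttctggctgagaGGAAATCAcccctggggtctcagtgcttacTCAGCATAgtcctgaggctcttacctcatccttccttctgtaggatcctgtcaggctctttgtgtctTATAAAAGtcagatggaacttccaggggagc
Ccl8, chr11:82114935-82115184: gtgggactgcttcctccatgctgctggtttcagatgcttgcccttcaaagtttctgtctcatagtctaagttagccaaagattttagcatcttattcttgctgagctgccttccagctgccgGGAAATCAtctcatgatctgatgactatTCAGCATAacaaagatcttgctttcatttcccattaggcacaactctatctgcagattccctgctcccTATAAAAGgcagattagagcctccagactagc
The pair was 67.3% identical over 226 aligned bases, with 3 such runs. The run nearest the start holds the TATA box letters TATAAA, which begin 31 bases before the start in Ccl12 and 32 bases before it in Ccl8. Those letters stood on the gene's own strand in 7.59% of the 32851 promoters of the table, over the same 250 bases. Other motifs were searched on both strands. The NF-kappaB letters, GGG and TTTCC with 2 bases of any kind between them, matched neither window and were in 1.41% of all promoters. The interferon-stimulated response element, a pair of GAAA with 2 bases of any kind between them, matched neither window and was in 2.98%. The AP-1 letters TGANTCA matched neither window and were in 6.75%.

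The first comparison asked whether the chemokine transcripts differed between KO_TAM and WT_TAM. These groups differ in the Cre inserted in Lyz2 as well as in Sin1, and the design cannot tell these apart. CPM were taken relative to the library total after the authors' scaling factor. None of the 4 genes passed the test, and for each the KO_TAM and WT_TAM libraries overlapped. Over all 12875 genes tested, 0 (0%) had an adjusted p under 0.05 by limma, 2368 (18.4%) had an unadjusted p under 0.05, and in 1948 (15.1%) the groups did not overlap. Other ways of fitting gave between 0 and 387 called genes, the highest with limma's array weights, and 65 when KO_TAM 2 and the library labelled WT_TAM 4 were left out; limma voom gave 0.

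**Figure D1:**
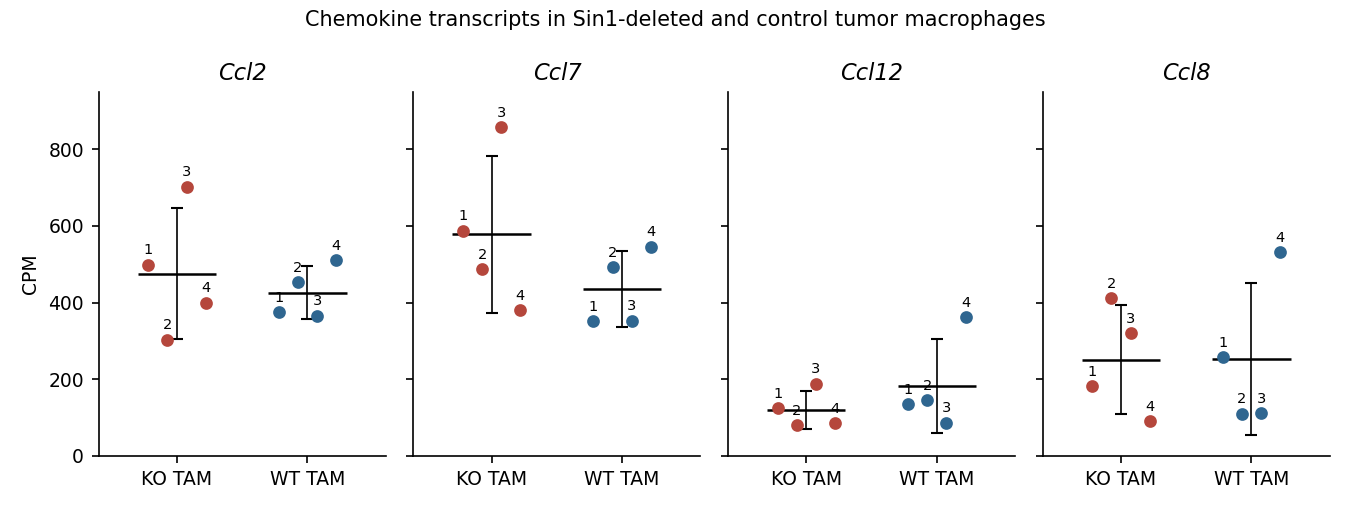
CPM of each gene in KO TAM (left of each panel) and WT TAM (right), 1 point per library with its replicate number; lines are means and bars 1 SD (n = 4 each). The groups overlap in all 4 panels, and the highest-to-lowest ratio is largest for Ccl8, 4.54 in KO TAM (90.6 to 412 CPM) and 4.83 in WT TAM (110 to 531 CPM).

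Ccl2 was at 499, 302, 702 and 400 CPM in KO_TAM 1 to 4, against 375, 453, 365 and 511 CPM in WT_TAM 1 to 4. The 4 WT_TAM libraries all lay within the range of the KO_TAM libraries, which held the highest and the lowest value. Ccl2 averaged 476 ± 171 CPM in KO_TAM against 426 ± 69.0 CPM in WT_TAM (SD, n = 4 each). The log2 fold change was 0.10 ± 0.26 (SE, 95% interval -0.47 to 0.68; limma adjusted p = 0.843). An exact two-sided permutation test of the 8 values gave p = 0.743, where 0.0286 is the smallest p it allows. Without KO_TAM 3, the log2 fold change of Ccl2 was -0.11, and without KO_TAM 2 and the library labelled WT_TAM 4 it was 0.39.

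Ccl7 was at 588, 487, 859 and 379 CPM in KO_TAM 1 to 4, against 352, 492, 353 and 546 CPM in WT_TAM 1 to 4. KO_TAM 1 and 3 lay above all WT_TAM libraries, while KO_TAM 2 and 4 lay among them. The mean was 578 ± 205 CPM in KO_TAM against 436 ± 98.8 CPM in WT_TAM (SD, n = 4 each). The log2 fold change was 0.37 ± 0.27 (SE, 95% interval -0.22 to 0.97; limma adjusted p = 0.456). The exact permutation test gave p = 0.257. The log2 fold change of Ccl7 stayed above 0 when any single library was left out, at 0.16 to 0.55, and without KO_TAM 2 and the library labelled WT_TAM 4 it was 0.55, with none of these past the limma threshold.

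Ccl12 was at 124, 79.6, 188 and 85.1 CPM in KO_TAM 1 to 4, against 134, 146, 85.9 and 362 CPM in WT_TAM 1 to 4. The library labelled WT_TAM 4 stood above the other 7, and without it the groups covered much the same range. The mean was 119 ± 50.02 CPM in KO_TAM against 182 ± 123 CPM in WT_TAM (SD, n = 4 each). The log2 fold change was -0.48 ± 0.42 (SE, 95% interval -1.42 to 0.45; limma adjusted p = 0.534; exact permutation p = 0.4). Without the library labelled WT_TAM 4 the log2 fold change was -0.08, and without KO_TAM 2 as well it was 0.08.

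Ccl8 had the largest highest-to-lowest ratio of the 4 in each TAM group. It was at 182, 412, 319 and 90.6 CPM in KO_TAM 1 to 4, against 257, 110, 112 and 531 CPM in WT_TAM 1 to 4. The highest library held 4.54 times the CPM of the lowest in KO_TAM and 4.83 times in WT_TAM. The highest libraries were KO_TAM 2 and the library labelled WT_TAM 4, the pair that lay apart over all genes. The mean was 251 ± 143 CPM in KO_TAM against 252 ± 198 CPM in WT_TAM (SD, n = 4 each). The log2 fold change was 0.09 ± 0.57 (SE, 95% interval -1.18 to 1.36; limma adjusted p = 0.939; exact permutation p = 0.914). The sign turned when KO_TAM 2, KO_TAM 3, WT_TAM 2 or WT_TAM 3 was left out, over a range of -0.22 to 0.56, and without KO_TAM 2 and the library labelled WT_TAM 4 it was 0.25.

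**Figure D2:**
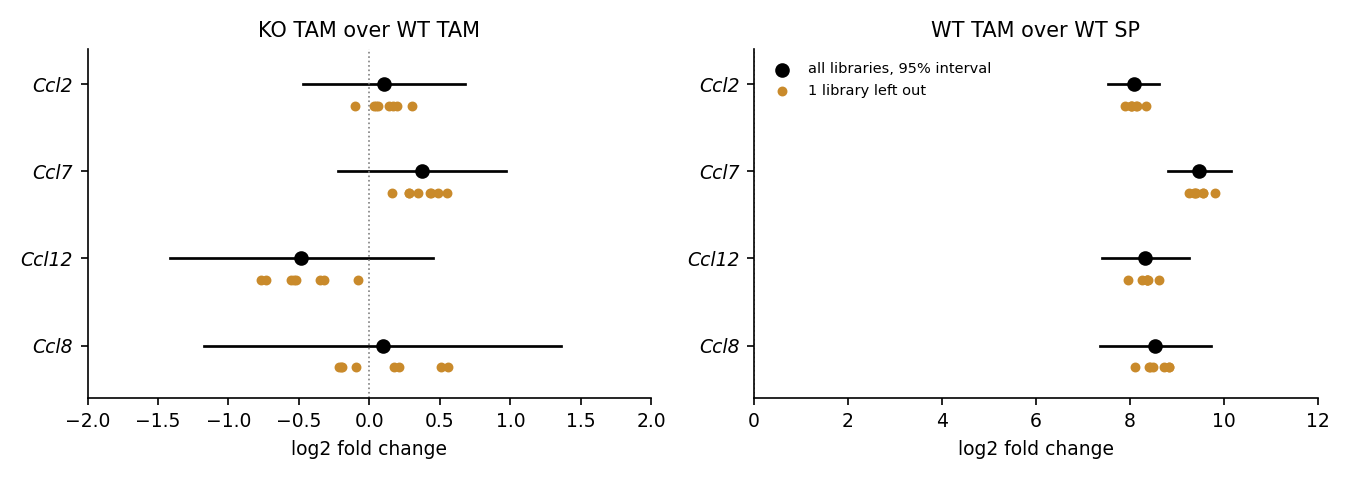
log2 fold change of each gene, KO TAM over WT TAM on the left and WT TAM over WT SP on the right; black points and lines are the fit to all libraries with its 95% interval, and orange points the fit with 1 library left out. All 4 intervals on the left include 0, and the lowest bound on the right is 7.37.

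The 4 genes together took 0.103% to 0.216% of the reads of KO_TAM libraries, against 0.098% to 0.165% of those of WT_TAM libraries. How this was divided among them differed from library to library. Corrected for transcript length, Ccl7 ranked first of the 4 in 3 of the 8 TAM libraries, Ccl8 in 3 and Ccl2 in 2, while Ccl12 ranked last in 6. Per kb of transcript, Ccl7 averaged 726 ± 258 CPM in KO_TAM against 547 ± 124 CPM in WT_TAM, Ccl2 588 ± 211 CPM in KO_TAM against 527 ± 85.2 CPM in WT_TAM, and Ccl8 499 ± 283 CPM in KO_TAM against 502 ± 394 CPM in WT_TAM (SD, n = 4 each). Ccl12 averaged 221 ± 92.8 CPM per kb in KO_TAM and 337 ± 228 CPM per kb in WT_TAM. In this order the means of neighbouring genes lay closer together than 1 SD of the more variable of the pair, in both groups. Among the 11962 tested genes with a length, ranked per kb, Ccl7 stood between place 80 and place 225 over the 8 libraries and Ccl2 between place 99 and place 248. Ccl8 stood between place 104 and place 540, and Ccl12 between place 236 and place 662, so all 4 were among the more abundant transcripts of TAMs in each library.

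**Figure D3:**
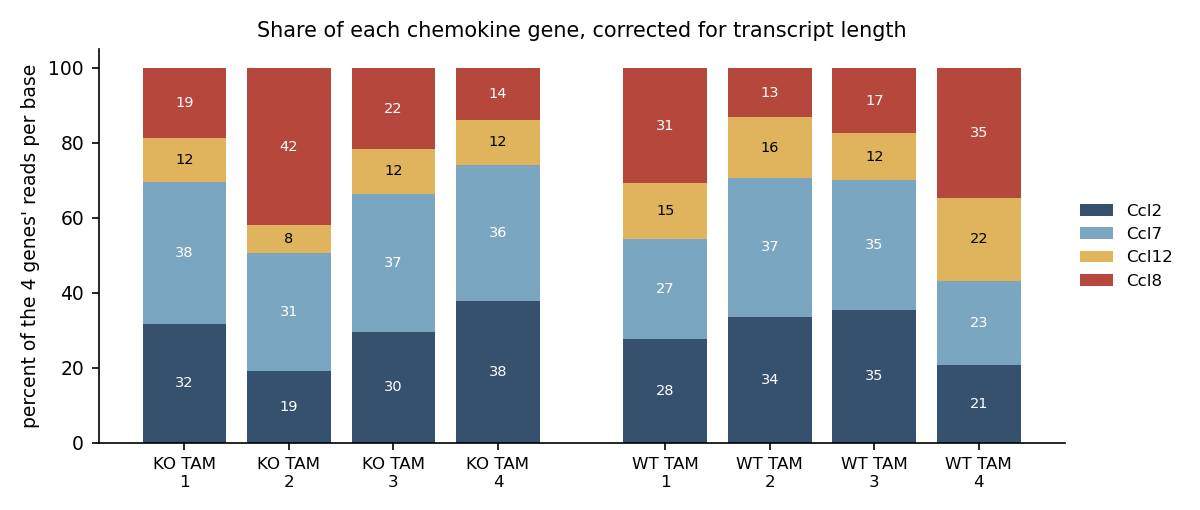
Share of each gene in the reads per base of the 4 genes, in percent, for the 4 KO TAM libraries (left) and the 4 WT TAM libraries (right). Ccl8 takes from 13.8% to 41.9% in KO TAM and from 13.1% to 34.7% in WT TAM, and Ccl7 from 31.3% to 37.9% in KO TAM and from 22.5% to 37.1% in WT TAM.

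Ccl8 made up 18.6%, 41.9%, 21.7% and 13.8% of the length-corrected reads of the 4 genes in KO_TAM 1 to 4, against 30.7%, 13.1%, 17.4% and 34.7% in WT_TAM 1 to 4. Ccl12 made up 11.8%, 7.57%, 11.9% and 12.1% in KO_TAM 1 to 4, against 14.96%, 16.2%, 12.5% and 22.04% in WT_TAM 1 to 4. The Ccl12 shares of the groups did not overlap, although the highest KO_TAM share and the lowest WT_TAM share were close. The shares of the other chemokine genes overlapped, as did the CPM of Ccl12. By CPM the groups did not overlap in 15.1% of all tested genes, and no such figure was computed for shares.

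Ratios of 2 of these genes within a library do not depend on the scaling of the library. For 5 of the 6 pairs the ratios overlapped between the groups. The pair that did not was picked out after its values were seen. The CPM of Ccl12 over that of Ccl7 was 0.211, 0.163, 0.219 and 0.224 in KO_TAM 1 to 4, against 0.382, 0.296, 0.243 and 0.662 in WT_TAM 1 to 4. Every KO_TAM ratio was below every WT_TAM ratio. The log2 ratio was lower in KO_TAM by a difference of -0.86 ± 0.33 (SE, n = 4 each), with an exact two-sided permutation p of 0.0286, the smallest this design allows, and a Benjamini-Hochberg adjusted p of 0.171 over the 6 pairs, so it failed the correction. Of 12874 other tested genes set over Ccl7 in the same way, 8.39% were lower in KO_TAM with no overlap. Without the library labelled WT_TAM 4 the difference was -0.57, and without KO_TAM 2 as well it was -0.47.

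Across the 8 TAM libraries Ccl2 and Ccl7 had the highest Pearson correlation of the 6 pairs. Pearson's r of log2(CPM + 0.5) was 0.81 (exact permutation p = 0.0171, adjusted p = 0.102 over 6 pairs) and Spearman's rho was 0.81 (exact permutation p = 0.0218, adjusted p = 0.0653), neither past the threshold after correction. Without KO_TAM 3 and KO_TAM 2, the libraries farthest from the median of Ccl2, r was 0.98. Ccl2 and Ccl12 had an r of 0.68 (exact permutation p = 0.0649, adjusted p = 0.195) and a rho of 0.81 (exact permutation p = 0.0218, adjusted p = 0.0653), with an r of 0.70 without the same libraries. Ccl7 and Ccl12 had an r of 0.51 (exact permutation p = 0.195, adjusted p = 0.292) and a rho of 0.50 (exact permutation p = 0.216, adjusted p = 0.432), with an r of 0.59 without KO_TAM 3 and WT_TAM 1. Ccl7 and Ccl8 had an r of 0.47 (exact permutation p = 0.243, adjusted p = 0.292) and a rho of 0.33 (exact permutation p = 0.428, adjusted p = 0.513), with an r of 0.61 without the same pair of libraries. Ccl2 and Ccl8 had an r of 0.18 (exact permutation p = 0.686, adjusted p = 0.686), a rho of 0.19 (exact permutation p = 0.665, adjusted p = 0.665) and an r of 0.50 without KO_TAM 3 and KO_TAM 2. Ccl12 and Ccl8, the neighbours at the far end of the cluster, had an r of 0.57 (exact permutation p = 0.138, adjusted p = 0.276) and a rho of 0.36 (exact permutation p = 0.389, adjusted p = 0.513), with an r of 0.77 without KO_TAM 2 and the library labelled WT_TAM 4. The points of these correlations pool KO_TAM and WT_TAM, and the permutations shuffled libraries across both groups, so any difference between the groups enters r. They also share library depth and the cell make-up of each sort.

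The genes most like each chemokine were taken as the 3 with the highest r of log2(CPM + 0.5) over the same 8 libraries, among 12871 tested genes. For Ccl7 these were Ms4a6d (r = 0.98), a membrane protein gene of macrophages, Ccl24 (r = 0.92), which encodes eotaxin-2, and Cd209b (r = 0.91), a lectin gene. For Ccl12 they were Cd68 (r = 0.98), a lysosomal membrane protein of macrophages, Ms4a7 (r = 0.96) and Gm3839 (r = 0.96). For Ccl2 they were Gm16096 (r = 0.92), C030037D09Rik (r = 0.91) and the Hippo pathway kinase gene Lats1 (r = 0.91). For Ccl8 they were Mapre3 (r = 0.94), which encodes a microtubule end-binding protein, Gm11110 (r = 0.94) and Wnt6 (r = 0.93). Each chemokine gene was set against the same 12871 genes: 67 genes reached an r of 0.9 with Ccl12, 9 with Ccl8, 6 with Ccl2 and 4 with Ccl7. Some of the named genes rest on few reads: Gm16096 was at 1.03 to 1.92 CPM over the 8 libraries, C030037D09Rik at 0 to 1.59 CPM, Cd209b at 0.59 to 1.75 CPM and Wnt6 at 0.44 to 2.48 CPM. Ms4a6d, at 448 to 736 CPM, and Cd68, at 974 to 1540.1 CPM, were abundant.

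**Figure D4:**
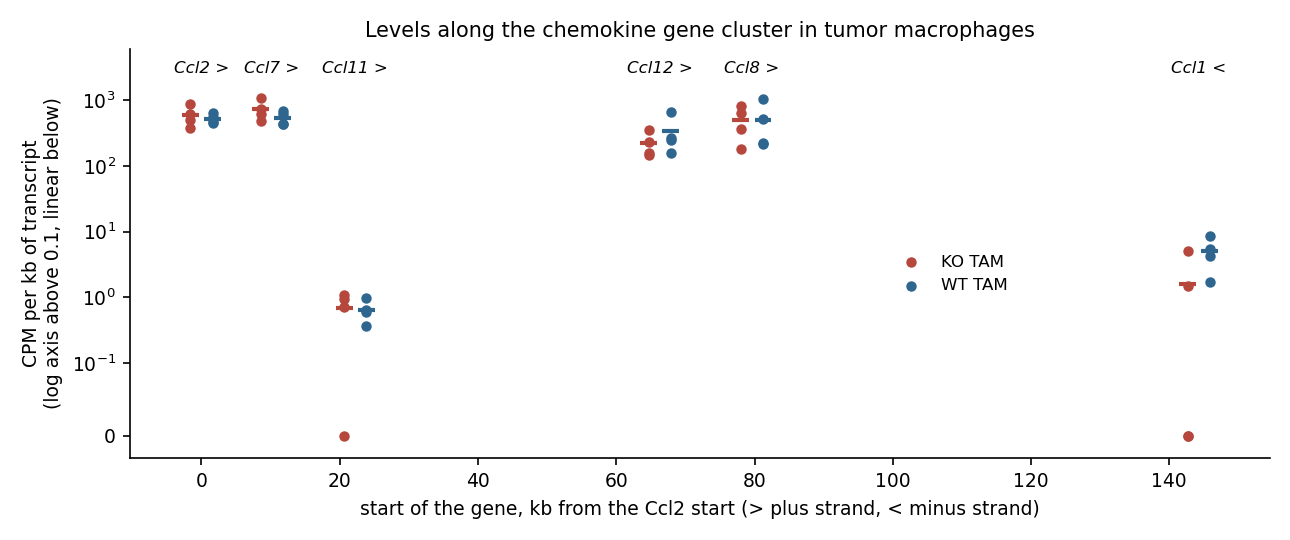
Level of each gene of the cluster in CPM per kb of transcript in KO TAM (left of each pair) and WT TAM (right), placed by the distance of its start from that of Ccl2 in kb; points are libraries and short lines means (n = 4 each). Ccl11 lies between Ccl7 and Ccl12 with at most 1.08 CPM per kb, while the 4 chemokine genes around it are all above 147 CPM per kb.

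The neighbours inside and beside the cluster were low in the same cells. Ccl11 was at 0.99, 1.14, 0.75 and 0 CPM in KO_TAM 1 to 4, against 1.03, 0.68, 0.39 and 0.62 CPM in WT_TAM 1 to 4, too low to be tested. Ccl1, which encodes a ligand of Ccr8 and lies on the minus strand 144 kb from the Ccl2 start, was at 0.84 ± 1.22 CPM in KO_TAM against 2.59 ± 1.498 CPM in WT_TAM (SD, n = 4 each; log2 fold change -1.49 ± 0.62 SE; limma adjusted p = 0.249). Ccl1 had 0 reads in KO_TAM 2 and 4, which allows up to 0.310 and 0.265 CPM (3 reads).

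Of the 7 receptor genes listed for these ligands, 5 could be tested and 0 passed limma's adjusted threshold in KO_TAM against WT_TAM. Over all 12875 genes tested 0 passed as well, and in 15.1% the groups did not overlap. The median log2 fold change of the 5 was 0.58, beside 0.01 over all tested genes. Ccr2 averaged 480 ± 157 CPM in KO_TAM against 435 ± 159 CPM in WT_TAM (log2 fold change 0.16 ± 0.35 SE; limma adjusted p = 0.822). Ccr1 averaged 671 ± 77.0 CPM in KO_TAM against 461 ± 125 CPM in WT_TAM (0.58 ± 0.22; limma adjusted p = 0.228). Ccr3, known from eosinophils, was at 111 to 411 CPM in KO_TAM against 8.68 to 84.7 CPM in WT_TAM, with no overlap (log2 fold change 2.17 ± 0.66 SE; limma adjusted p = 0.165). Beside it, 10 markers of eosinophils, basophils and mast cells summed to 120 to 540 CPM in KO_TAM against 16.6 to 96.8 CPM in WT_TAM, and 0 of the 5 tested passed limma's adjusted threshold. Siglecf took the largest part, at a mean of 219 CPM in KO_TAM against 46.8 CPM in WT_TAM, and the granule gene Epx was at 0.25 CPM or less in KO_TAM and 0.77 CPM or less in WT_TAM. Their part in the Ccr3 values was not tested. Ccr8 was at 5.81 ± 4.73 CPM in KO_TAM against 5.17 ± 1.45 CPM in WT_TAM (-0.08 ± 0.46; limma adjusted p = 0.938). The decoy receptor genes Ackr1 and Ackr2, whose products take up chemokines without signalling, averaged under 0.5 CPM in both groups and were not tested.

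Among 13 other CC chemokine genes, 10 were tested in KO_TAM against WT_TAM and 0 passed by limma, with a median log2 fold change of 0.30. Over all 12875 genes tested 0 passed as well, so a count of 0 says nothing particular about any list here. Of the 10, 6 were above 0 and 4 below. The unadjusted limma p was under 0.05 for 4, all higher in KO_TAM, beside 18.4% of all tested genes in either direction. The sum over the 12 genes found was 6943 to 11335 CPM in KO_TAM against 3513 to 4250 CPM in WT_TAM, with no overlap. Most of that sum came from genes of the list other than Ccl3, Ccl4 and Ccl5. Among all tested genes the groups did not overlap in 15.1%. Ccl3 averaged 256 ± 57.0 CPM in KO_TAM against 114 ± 39.5 CPM in WT_TAM (log2 fold change 1.22 ± 0.29 SE; limma adjusted p = 0.119), Ccl4 254 ± 84.4 CPM in KO_TAM against 140 ± 40.9 CPM in WT_TAM (0.84 ± 0.29; limma adjusted p = 0.197) and Ccl5 102 ± 20.9 CPM in KO_TAM against 118 ± 44.7 CPM in WT_TAM (-0.15 ± 0.28; limma adjusted p = 0.787). NF-kappaB is the factor best known for induction of Ccl2. Of 13 genes for its subunits, kinases and inhibitors 0 passed, with a median of 0.24. Rela averaged 95.8 ± 22.6 CPM in KO_TAM against 81.8 ± 4.43 CPM in WT_TAM, Nfkb1 57.6 ± 15.5 CPM in KO_TAM against 50.1 ± 20.4 CPM in WT_TAM, and Nfkbia 1320 ± 295 CPM in KO_TAM against 1035 ± 158 CPM in WT_TAM (SD, n = 4 each). Of 12 AP-1 and C/EBP genes 0 passed (median -0.13), and Jun averaged 755 ± 130 CPM in KO_TAM against 777 ± 267 CPM in WT_TAM, Fos 4247 ± 634 CPM in KO_TAM against 4048 ± 1323 CPM in WT_TAM. Of 10 genes for other secreted monocyte and macrophage factors 8 were tested and 0 passed (median 0.07). Csf1 averaged 43.3 ± 5.92 CPM in KO_TAM against 37.6 ± 10.1 CPM in WT_TAM, and Il34, the other ligand of the Csf1 receptor, 4.72 ± 3.64 CPM in KO_TAM against 21.9 ± 11.8 CPM in WT_TAM (log2 fold change -2.36 ± 0.65 SE; limma adjusted p = 0.136).

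Fibroblasts can also make these chemokines, though the CD45+ gate should remove them, as the Ly6G and Ly6C gates should remove neutrophils and Ly6C-high monocytes. The sum of 10 fibroblast genes was 37.5 to 285 CPM in KO_TAM against 483 to 1038 CPM in WT_TAM, with no overlap. Among all tested genes the groups did not overlap in 15.1%. All 9 that could be tested had a log2 fold change below 0, with a median of -1.88. The unadjusted limma p was under 0.05 for 7 of the 9, beside 18.4% of all tested genes in either direction. Of the 9, 0 passed limma's adjusted threshold, as did 0 of all 12875 genes tested. Col3a1 took the largest part, at 70.8 CPM in KO_TAM against 321 CPM in WT_TAM, and no marker but Fap averaged under 0.5 CPM. The 10 monocyte markers summed to 2124 to 5118 CPM in KO_TAM against 1530 to 2676 CPM in WT_TAM. Chil3 took the largest part of that sum, at a mean of 1912 CPM in KO_TAM against 857 CPM in WT_TAM. Of the 10, 5 had a log2 fold change above 0 and 5 below, with a median of 0.07, and 0 passed limma's adjusted threshold. The 10 neutrophil markers summed to 520 to 1475 CPM in KO_TAM against 137 to 333 CPM in WT_TAM, mostly Retnlg, Mmp8 and Mmp9, while Ly6g averaged 0.038 CPM in KO_TAM against 0.018 CPM in WT_TAM. All 5 neutrophil genes that could be tested had a log2 fold change above 0, with a median of 1.77. The unadjusted limma p was under 0.05 for 4 of the 5, and 0 of 5 passed the adjusted threshold. The part of these cells in the chemokine values was not tested. In such sorted bulk samples fewer cells of a type and less RNA per cell cannot be told apart.

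The second comparison set control TAMs against splenic macrophages of control tumor-bearing mice. All 4 chemokine genes were higher in WT_TAM, by log2 fold changes of 8.09 to 9.48, and each passed limma's adjusted threshold, which 6651 of 14239 genes tested (46.7%) also passed, 3287 (23.1%) of them higher in WT_TAM. In each of the 4 genes every WT_TAM library lay above every WT_SP library, as in 26.3% of all tested genes. By size of the fold change they stood at places 5 (Ccl7), 8 (Ccl8), 11 (Ccl12) and 12 (Ccl2), so that 12 of 14239 genes (0.0843%) had a fold change of at least that of Ccl2. Ccl7, Ccl8 and Ccl12 passed the filter on low reads only through WT_TAM, and their fold changes depend on the pseudocount. The genes were also chosen with earlier results of these data known, so the places describe the data and are no test. The WT_TAM libraries are those of the first comparison, with the same reads, scaled in a table of their own, so their CPM differ slightly between the tables and the comparisons are not independent. The exact two-sided permutation p was 0.0286 for each gene, the smallest that 4 against 3 libraries allow.

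**Figure D5:**
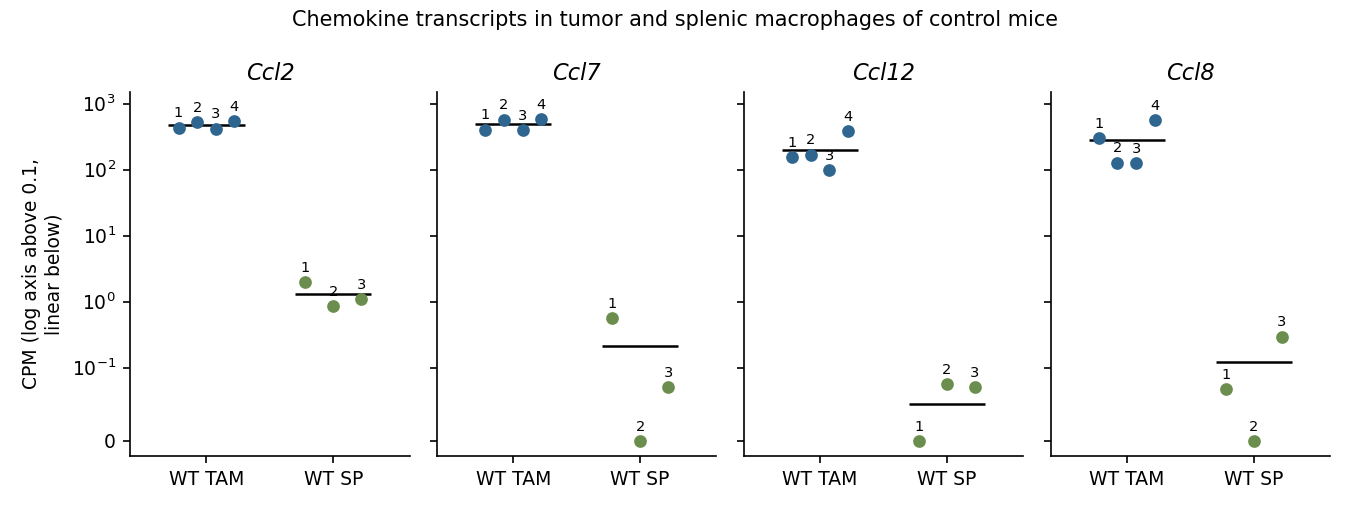
CPM of each gene in WT TAM (left of each panel, n = 4) and WT SP (right, n = 3), 1 point per library with its replicate number and a line at the mean; the axis is logarithmic above 0.1 CPM and linear below. The lowest WT TAM value is 97.3 CPM (Ccl12) and the highest WT SP value 1.97 CPM (Ccl2).

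Ccl2 was at 432, 523, 414 and 541 CPM in WT_TAM 1 to 4, against 1.97, 0.85 and 1.10 CPM in WT_SP 1 to 3. The splenic values came from 28, 11 and 15 reads, so Ccl2 was detected in every splenic library. The mean was 477 ± 63.8 CPM in WT_TAM (SD, n = 4) and 1.31 ± 0.59 CPM in WT_SP (SD, n = 3). Its log2 fold change was 8.09 ± 0.24 (SE, 95% interval 7.54 to 8.63; limma adjusted p = 3.46e-07). Over the pooled reads the ratio was 353, with an exact 95% interval of 270.2 to 470 that covers counting error only.

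Ccl7 was at 405, 568, 400 and 578 CPM in WT_TAM 1 to 4, against 0.56, 0 and 0.07 CPM in WT_SP 1 to 3. The splenic libraries held 8, 0 and 1 reads of Ccl7. The mean was 488 ± 98.5 CPM in WT_TAM and 0.21 ± 0.31 CPM in WT_SP (SD, n = 4 and 3). Its log2 fold change was 9.48 ± 0.29 (SE, 95% interval 8.81 to 10.15; limma adjusted p = 3.46e-07), and the pooled ratio was 2139 (exact 95% interval 1126 to 4678). Corrected for length, Ccl2 made up 20.7% to 35.4% of the reads of the 4 genes in WT_TAM libraries, against 62.6% to 88.0% in WT_SP libraries.

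Ccl12 was at 155, 168, 97.3 and 383 CPM in WT_TAM 1 to 4, against 0, 0.08 and 0.07 CPM in WT_SP 1 to 3, which came from 0, 1 and 1 reads. The splenic level was below what 3 reads would give in any of these libraries, 0.21 to 0.23 CPM. The mean was 201 ± 125 CPM in WT_TAM and 0.05 ± 0.04 CPM in WT_SP (SD, n = 4 and 3; log2 fold change 8.33 ± 0.41 SE, 95% interval 7.40 to 9.27; limma adjusted p = 1.40e-06), and the pooled ratio was 3603, with a wide exact 95% interval of 997 to 29757.

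Ccl8 was at 296, 127, 126 and 562 CPM in WT_TAM 1 to 4, against 0.07, 0 and 0.29 CPM in WT_SP 1 to 3, from 1, 0 and 4 reads. WT_TAM 2 and 3 were the lower TAM libraries and still lay far above every splenic one. The mean was 278 ± 205 CPM in WT_TAM and 0.12 ± 0.15 CPM in WT_SP (SD, n = 4 and 3; log2 fold change 8.55 ± 0.51 SE, 95% interval 7.37 to 9.72; limma adjusted p = 3.60e-06), and the pooled ratio was 1994 (exact 95% interval 854 to 6141). Without the library labelled WT_TAM 4 the log2 fold changes were 8.02 for Ccl2, 9.39 for Ccl7, 7.96 for Ccl12 and 8.11 for Ccl8, each past limma's adjusted threshold.

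These fold changes depend on the pseudocount of 0.5 CPM, since the splenic libraries hold so few reads. With a pseudocount of 1 CPM they were 7.72 (Ccl2), 8.66 (Ccl7), 7.40 (Ccl12) and 7.68 (Ccl8), and with 0.1 CPM 8.48, 11.05, 10.25 and 10.24 for the same genes. Scaling by library totals without the authors' factor moved the median log2 fold change of all tested genes to -0.51, against -0.07 with it. Relative to that median the 4 genes were higher by 8.20 to 9.73 with totals alone and by 8.15 to 9.55 with the factor, while the calls over all genes split into 2135 higher and 5629 lower in WT_TAM with totals alone, against 3287 higher and 3364 lower with the factor.

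Markers of other cells moved with this comparison, in which 46.7% of all tested genes passed by limma and 23.1% passed as higher in WT_TAM. All 9 fibroblast genes tested were higher in WT_TAM by limma, with a sum over 10 genes of 550 to 1199 CPM in WT_TAM and 10.96 to 56.6 CPM in WT_SP. Epithelial and tumor cell markers summed to 185 to 412 CPM in WT_TAM and 12.2 to 20.2 CPM in WT_SP, mostly Cdh1 and Sox9, while Krt8, Krt7 and Krt19 averaged below 0.5 CPM in both groups and Cldn4 was at 0 in WT_TAM. All 8 B and plasma cell genes and all 10 T and NK cell genes were lower in WT_TAM. Their part in the chemokine difference was not tested.

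Receptors differed as well between the sites. Of 6 receptor genes tested, 4 were higher and 1 was lower in WT_TAM by limma, with a median log2 fold change of 2.17. Over all 14239 genes tested, 46.7% passed in either direction and 23.1% passed as higher in WT_TAM. Ccr2 averaged 494 ± 189 CPM in WT_TAM and 42.9 ± 4.12 CPM in WT_SP (log2 fold change 3.41 ± 0.34 SE) and Ccr1 521 ± 155 CPM in WT_TAM and 17.7 ± 3.23 CPM in WT_SP (4.80 ± 0.27; SD, n = 4 and 3). Ccr8 was also higher, at 5.86 ± 1.78 CPM in WT_TAM and 2.73 ± 0.29 CPM in WT_SP (0.93 ± 0.30; limma adjusted p = 0.0329). The scavenging receptor gene Ackr2 was lower, at 0.46 ± 0.87 CPM in WT_TAM and 8.90 ± 1.75 CPM in WT_SP (-3.61 ± 0.54). Ackr2 passed the filter on low reads only through WT_SP, so its call describes the data and is no test. Ccr3 did not pass, at 61.5 ± 37.9 CPM in WT_TAM and 136 ± 22.7 CPM in WT_SP (-1.55 ± 0.71; limma adjusted p = 0.106).

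Not every CC chemokine gene was higher in TAMs. Of 10 others tested, 8 were higher and 1, Ccl5, was lower in WT_TAM by limma, with a median log2 fold change of 2.50 beside -0.07 over all tested genes. Of all tested genes, 46.7% passed in either direction and 23.1% passed as higher in WT_TAM. Ccl5 averaged 131 ± 45.5 CPM in WT_TAM and 267 ± 31.2 CPM in WT_SP (-1.08 ± 0.28 SE; limma adjusted p = 0.0122), Ccl3 129 ± 48.3 CPM in WT_TAM and 24.7 ± 14.6 CPM in WT_SP (2.49 ± 0.50) and Ccl4 159 ± 50.9 CPM in WT_TAM and 28.0 ± 10.7 CPM in WT_SP (2.51 ± 0.34). The 10 T and NK cell genes summed to 111 to 198 CPM in WT_TAM and 1157 to 1260 CPM in WT_SP. The part of such cells in the Ccl5 values was not tested. Within the cluster, Ccl11 had 14, 8, 5 and 4 reads in WT_TAM 1 to 4 and 0 reads in each WT_SP library, which allows up to 0.21 to 0.23 CPM there (3 reads), and Ccl1 averaged 2.87 ± 1.55 CPM in WT_TAM and 0.38 ± 0.48 CPM in WT_SP (1.94 ± 0.49; limma adjusted p = 0.0117). Ccl1 held 0, 12 and 3 reads in WT_SP 1 to 3 and passed the filter on low reads only through WT_TAM. Its call therefore describes the data and is no test.

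Of the 13 NF-kappaB genes, 4 were higher and 3 lower in WT_TAM by limma (median -0.57). That is near the share over all genes tested, of which 46.7% passed in either direction and 23.1% passed as higher in WT_TAM. The inhibitor gene Nfkbia was higher, at 1164 ± 191 CPM in WT_TAM and 351 ± 34.4 CPM in WT_SP, while the subunit genes Rela (92.1 ± 8.20 CPM in WT_TAM and 154 ± 4.63 CPM in WT_SP) and Nfkb1 (55.6 ± 19.96 CPM in WT_TAM and 96.2 ± 7.31 CPM in WT_SP) were lower. Of the 12 AP-1 and C/EBP genes 9 were higher and 0 lower (median 2.34). Fos averaged 4595 ± 1627 CPM in WT_TAM and 859 ± 340 CPM in WT_SP and passed, Cebpb 6.17 ± 5.55 CPM in WT_TAM and 0.67 ± 0.42 CPM in WT_SP and passed, and Jun did not, at 881 ± 327 CPM in WT_TAM and 614 ± 198 CPM in WT_SP. All 8 tested genes of the other secreted factors were higher in WT_TAM (median 2.75), with Csf1 at 42.3 ± 12.02 CPM in WT_TAM and 7.44 ± 1.01 CPM in WT_SP, Il34 at 24.3 ± 12.002 CPM in WT_TAM and 0.52 ± 0.71 CPM in WT_SP, and the chemokine Cx3cl1 at 8.03 ± 2.50 CPM in WT_TAM and 1.06 ± 0.47 CPM in WT_SP. Cebpb and Il34 passed the filter on low reads only through WT_TAM, so their calls describe the data and are no test.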

How the data were processed

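RNA was measured in 11 libraries, in 2 tables. Per the labels the reads are of total RNA, and the submitters' processing notes name TopHat2, HISAT2, HISAT, SAMtools, HTSeq, DESeq2 and the mm10 build, without versions or roles. The authors deposited per-gene values that are neither raw counts nor a plain normalized unit, recorded here as a score: per the file headers and values they are reads per length and library total, divided by a scaling factor and multiplied again by factors that cycle over rows. Undoing this gave whole reads (within 5e-06 reads) for 99.9% of non-zero values of the genotype table and for all of the site table. The 98 values that did not come out whole, all of the genotype comparison and in 35 genes, were restored; none is of a chemokine or list gene. Genes without a length carry negative values in the files.

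CPM divide the reads by the total of a library multiplied by its deposited factor. A gene was tested if it reached the CPM of 10 reads in a median library in a number of libraries no lower than the size of the smaller group, and 15 reads in all. limma 3.58.1 (R 4.3.3; trended, robust) tested log2(CPM + 0.5) within each table, with Benjamini-Hochberg adjustment over all genes tested, adjusted p under 0.05 as threshold and, because the values are a score, no count model. It was tested on simulated data. Single values used exact permutation tests. For counting intervals scipy 1.17.1 was used, and for promoters and transcripts Biopython 1.88. Counting intervals are exact Poisson or binomial at 95%, cover counting error only, and the floor is 3 reads. The labels call the mice paired but do not tie pairs to replicate numbers, and the numbers did not pair the libraries in the data. The chemokine genes and the lists were chosen with earlier results of these data known. Genes named are the 4 chemokine genes, the receptors (1 of the list is not reported here), the first 3 of each other list (and any list member singled out beside its count, chosen after its values were seen: Cdh1, Sox9, Krt8, Krt7, Krt19, Cldn4, Siglecf, Lyz2, Epx, Col3a1, Fap, Chil3, Retnlg, Mmp8, Mmp9, Ly6g) and the 3 most alike each chemokine gene.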

Additional observations from a re-analysis of the deposited data

How the results depend on the processing

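The higher level of all 4 chemokine genes in WT_TAM against WT_SP held its direction and its call under every alternative fit run. The fits gave 68 results over the 4 genes together, with a fit that 2 settings share counted once. Their log2 fold changes were 7.40 to 11.78. Ccl7, Ccl8 and Ccl12 passed the filter on low reads only through WT_TAM, so these repeated calls add no support for them. In KO_TAM against WT_TAM no alternative brought any of the 4 genes past limma's threshold, with adjusted p from 0.131 to 0.977. Direction turned for Ccl12 with array weights (0.089) and without KO_TAM 2 and the library labelled WT_TAM 4 (0.080). Leaving out 1 library at a time gave -0.11 (without KO_TAM 3) to 0.30 for Ccl2, 0.16 to 0.55 for Ccl7, -0.22 to 0.56 for Ccl8 and -0.77 to -0.08 for Ccl12, and -1.05 to -0.57 for the log2 difference of the Ccl12 to Ccl7 ratio, whose alternatives were chosen after seeing the data. The count of genes changed between KO_TAM and WT_TAM, 0, became 98 with no filter, 387 with array weights, 4 with the values as deposited, 65 without both libraries that lie apart and 80 with all 11 libraries in 1 fit; the cause was not tested. The replicate block gave 0 genes there. In WT_TAM against WT_SP the block also leaves out the library labelled WT_TAM 4, which has no same-numbered splenic library. It gave 9008 genes, beside 9133 without that library and with no block, and 6651 with all libraries. Same-numbered libraries did not deviate together, with correlations of -0.16 to 0.20, and the block changed no call of the 4 genes. Depth limits the splenic values, which rest on 54 (Ccl2), 9 (Ccl7), 5 (Ccl8) and 2 (Ccl12) reads.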
